A study of Mus musculus with 3 samples.

Results

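The genes described here are 42 components of the bone morphogenetic protein (BMP) and transforming growth factor beta (TGF-beta) pathways, chosen by gene symbol as ligands, receptors, Smad proteins, Id target genes and antagonists. All 42 were found once each among the 44625 gene entries of the table. Their levels were read in 3 RNA sequencing libraries of polyadenylated RNA. The libraries came from cells of back skin of wild-type (WT) mice aged 56 days (P56), in the second telogen, the resting phase of the hair cycle, and the cells were sorted from trypsin-digested skin, after the dermis had been taken off, as integrin alpha6-positive and Sca1-negative. The labels name no treatment, strain or sex, and only the antibody to integrin alpha6 is named among the reagents. They speak of duplicates while giving 3 replicates, so each p and each SD may rest partly on technical repeats. There was 1 group, and no contrast between groups could be fitted.

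BMP ligands bind a pair of receptor kinases, a type I receptor (Bmpr1a, Bmpr1b or Acvr1) and a type II receptor (Bmpr2, Acvr2a or Acvr2b), which phosphorylate Smad1, Smad5 and Smad9. TGF-beta and activin signal through their own receptors to Smad2 and Smad3, and both branches use Smad4. BMP signalling is known to hold hair follicle stem cells at rest during telogen, and secreted BMP antagonists and TGF-beta2 are known to favour their activation. The Id genes, which encode inhibitors of basic helix-loop-helix factors, are direct targets of BMP Smads in many cells.

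The libraries held between 29283936 and 39198620 counts. Of the hair follicle stem cell markers, 8 of 8 had a mean of at least 1 TPM (a read count per base of gene, expressed as a share of its library), and their summed level ranged from 21278 to 27593 TPM, of which Krt15 made up 19607 to 25612 TPM. Sca1 itself (Ly6a) had 3.16 to 11.6 TPM. The summed level of the 10 dermal papilla and fibroblast markers was 25.1, 50.5 and 45.0 TPM in replicates 1, 2 and 3. In that list 3 genes reached 1 TPM (Col1a1, Col1a2 and Hhip), and no read of Lum or Dpt was counted. Suprabasal epidermis markers summed to 2072, 3567 and 5569 TPM, and 4 of 5 sebaceous markers were detected, with a summed level between 175 and 225 TPM. Of the melanocyte markers 3 of 5 were detected (Mitf with a mean of 32.3 TPM, Dct with 8.02 and Pmel with 4.15), and of the immune markers 1 of 5, Cd74 with 10.7 TPM. None of the 5 endothelial or 4 smooth muscle markers reached a mean of 1 TPM, and Acta2 had 1.49 TPM in replicate 3. Replicate 1 stood apart over the whole table, since 12.9% of detected entries differed there by more than 1 on the log2(TPM + 1) scale from both other libraries, against 1.68% and 2.88% in replicates 2 and 3. None of the 42 pathway genes did so in any library.

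The deposited table also gives each gene an H3K27me3 value, for a histone mark associated with repression. The sequences just upstream of the start site are shown for 4 genes, because they show both states: Bmp4 and Bmp8b, which carried a value above 0 and had a mean under 1 TPM, and Grem1 and Smad6, which carried a value of 0 and were expressed. Each is the 250 bases before the RefSeq start site on GRCm38.p6, written 5′ to 3′ on the strand of the gene, with CG dinucleotides in capitals, and lies outside every exon of GENCODE M21.
Bmp4 (chr14:46390670-46390919, minus strand): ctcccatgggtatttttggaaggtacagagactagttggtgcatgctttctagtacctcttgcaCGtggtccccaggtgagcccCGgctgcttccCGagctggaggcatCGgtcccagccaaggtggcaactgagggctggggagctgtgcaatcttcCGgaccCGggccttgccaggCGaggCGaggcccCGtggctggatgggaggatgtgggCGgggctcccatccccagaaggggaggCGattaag
Bmp8b (chr4:123104911-123105160, plus strand): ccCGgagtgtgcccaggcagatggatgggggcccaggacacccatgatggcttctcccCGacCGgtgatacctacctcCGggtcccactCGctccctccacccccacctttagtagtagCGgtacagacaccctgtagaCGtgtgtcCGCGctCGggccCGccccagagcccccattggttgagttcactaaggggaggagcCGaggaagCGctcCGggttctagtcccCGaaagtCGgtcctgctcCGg
Grem1 (chr2:113758649-113758898, minus strand): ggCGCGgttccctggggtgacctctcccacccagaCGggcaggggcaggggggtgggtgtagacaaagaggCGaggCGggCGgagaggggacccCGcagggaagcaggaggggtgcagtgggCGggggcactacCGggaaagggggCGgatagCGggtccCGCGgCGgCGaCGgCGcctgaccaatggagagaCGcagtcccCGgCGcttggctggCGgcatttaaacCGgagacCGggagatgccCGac
Smad6 (chr9:64022060-64022309, minus strand): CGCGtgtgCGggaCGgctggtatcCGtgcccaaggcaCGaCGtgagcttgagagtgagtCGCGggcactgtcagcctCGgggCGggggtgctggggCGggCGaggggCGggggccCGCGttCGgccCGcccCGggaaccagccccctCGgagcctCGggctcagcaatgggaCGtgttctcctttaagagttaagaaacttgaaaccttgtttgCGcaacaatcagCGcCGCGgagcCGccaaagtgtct
These windows held 11 CG dinucleotides for Bmp4, 17 for Bmp8b, 24 for Grem1 and 27 for Smad6.

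Of the 42 genes, 34 were detected, meaning a mean of at least 1 TPM, where 30.6% of all entries and 54.9% of protein-coding genes were. A mean of at least 10 TPM was reached by 32 of them, against 18.3% of all entries and 36.5% of protein-coding genes. The median of the 42 mean levels was 19.6 TPM. The genes at the top were targets and antagonists, with Id3, Id1, Id2, Fst and Grem1 above all ligands, receptors and Smads. Sorted by mean level, 37 of 41 neighbouring pairs overlapped in their ranges over the replicates, so most of the order is not resolved. The 4 gaps that exceeded the spread lay between Grem1 and Nog, between Bambi and Tgfbr3, between Tgfbr3 and Acvr2b, and between Acvr2b and Bmp4.

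**Figure D1:**
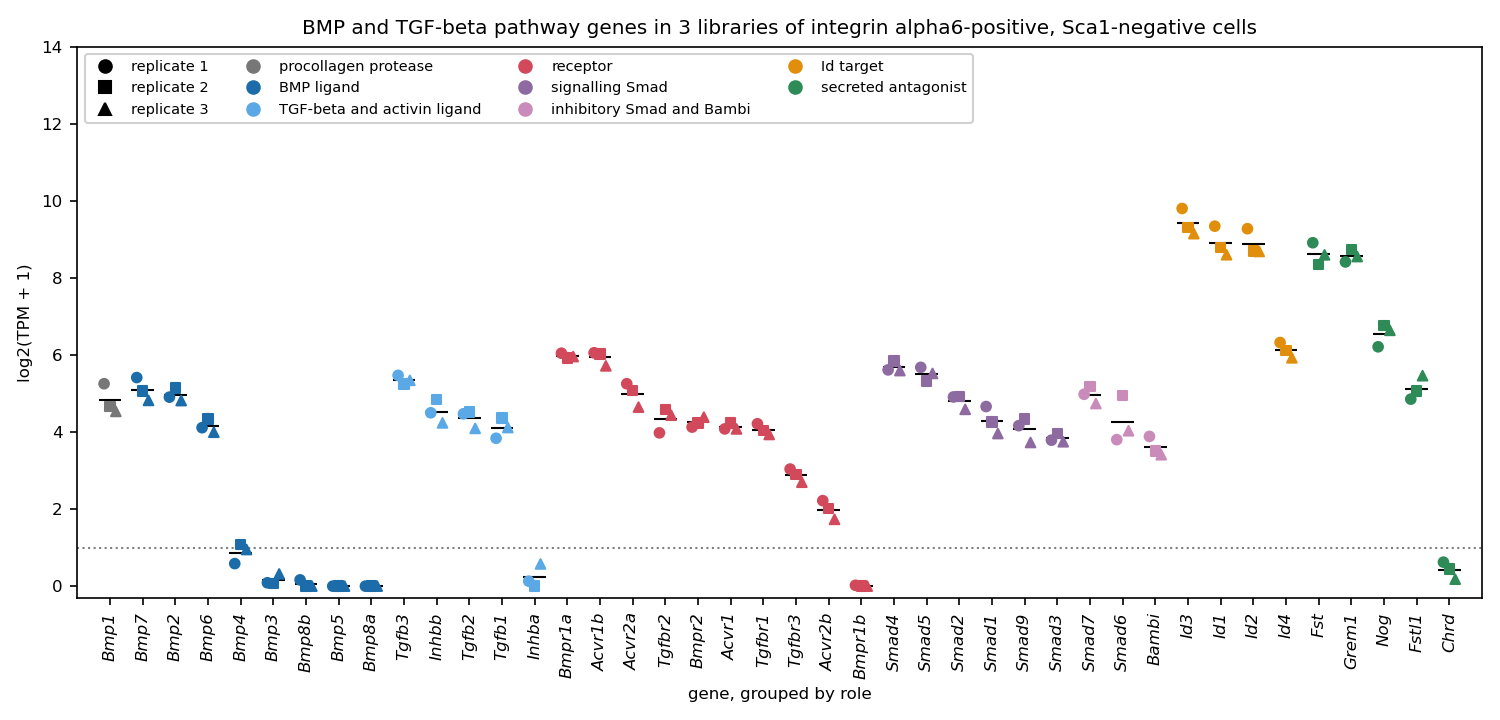
Levels of the 42 pathway genes on the log2(TPM + 1) scale, grouped by role and sorted by mean TPM within each role. Each point is 1 library (circle, square and triangle for replicates 1, 2 and 3), black bars are means over the 3 libraries, and the dotted line marks 1 TPM. Id1, Id2, Id3, Fst and Grem1 lie highest, and Bmp3, Bmp4, Bmp5, Bmp8a, Bmp8b, Inhba, Bmpr1b and Chrd have mean levels under 1 TPM.

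Among BMP ligands, 3 of 8 were detected, Bmp7, Bmp2 and Bmp6. Bmp7 (GRCm38 chromosome 2, 172868012 to 172940321, minus strand) was measured at 41.7, 32.4 and 27.3 TPM in replicates 1, 2 and 3, a mean of 33.8 ± 7.30 TPM (SD, n = 3). Bmp2 (GRCm38 chromosome 2, 133552159 to 133562885, plus strand) had 29.02, 34.4 and 27.2 TPM, a mean of 30.2 ± 3.73 TPM. The ranges of Bmp7 and Bmp2 overlapped. Bmp6 (GRCm38 chromosome 13, 38345107 to 38500302, plus strand), a ligand that bulge cells are known to make in telogen, had 16.3, 19.3 and 14.96 TPM, a mean of 16.9 ± 2.21 TPM. Its highest value lay below the lowest of Bmp2 and of Bmp7. Exons of Bmp6 overlap Txndc5 on the opposite strand over 224 bases, and Txndc5 had a mean of 89.6 TPM. The strand setting of the counting is not given in the sources used here, so reads from the shared bases cannot be told apart.

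Bmp4 (GRCm38 chromosome 14, 46383520 to 46390669, minus strand), the BMP best known from the dermal papilla, had 12, 34 and 32 counts, or 0.501, 1.12 and 0.933 TPM. It was under 1 TPM in replicates 1 and 3 and just above it in replicate 2. On the log2(TPM + 1) scale Bmp4 minus Bmp2 was -4.32, -4.06 and -3.87 in the 3 replicates, and Bmp6 exceeded Bmp4 by 3.53, 3.26 and 3.05. Since Bmp4 is near 0, these sizes rest on the pseudocount, and with 5 in place of 1 their means moved from -4.08 to -2.59 and from 3.28 to 1.90. Neither order changed in any replicate (exact sign-flip permutation test, two-sided, p = 0.25 each, the smallest that 3 replicates allow). Bmp3, which antagonizes other BMPs, had 5, 5 and 28 counts, and Bmp8b had 5, 0 and 0 counts. No read of Bmp5 or Bmp8a was counted. At the limit of 3 counts a library, Bmp5 could have reached 0.0691, 0.0544 and 0.0483 TPM and Bmp8a 0.116, 0.0911 and 0.0809 TPM in replicates 1, 2 and 3. These limits cover counting error only, and Bmp8a and Bmp8b are close copies whose reads could be split. In bulk libraries fewer cells making a gene and less RNA per cell cannot be told apart.

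Bmp1, named with the BMPs, is an astacin protease that trims procollagens and cleaves chordin. It had 37.2, 24.5 and 22.2 TPM, with replicate 1 above the others.

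All 3 TGF-beta ligand genes were detected, and Tgfb3 was the highest. Tgfb3 (GRCm38 chromosome 12, 86056745 to 86079041, minus strand) had 43.5, 37.03 and 39.6 TPM, a mean of 40.04 ± 3.23 TPM. Tgfb2 (GRCm38 chromosome 1, 186622792 to 186705989, minus strand), the isoform linked to activation of the hair germ, had 21.2, 21.9 and 16.1 TPM. Tgfb1 had 13.3, 19.7 and 16.4 TPM. The lowest value of Tgfb3 lay above the highest of both, whereas Tgfb1 and Tgfb2 overlapped and changed order in replicate 3. Tgfb2 minus Tgfb3 was -0.99 ± 0.26 on the log2(TPM + 1) scale (exact sign-flip p = 0.25), and -0.25 on CPM, which is not divided by length. Of the activin subunit genes, Inhbb (GRCm38 chromosome 1, 119415465 to 119422248, minus strand) had 21.7, 27.8 and 17.9 TPM. Inhba, the gene of the other activin subunit, had 2, 0 and 15 counts. Summed per library, the 8 BMP ligand genes gave 87.7, 87.3 and 70.7 TPM and the 5 TGF-beta and activin genes 99.8, 106 and 90.5 TPM.

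Of the 10 receptor genes, 9 were detected. Bmpr1a (GRCm38 chromosome 14, 34410734 to 34503341, minus strand), the main type I BMP receptor of the follicle, had 65.2, 59.6 and 61.3 TPM, a mean of 62.01 ± 2.89 TPM. Acvr1b (GRCm38 chromosome 15, 101174067 to 101213684, plus strand), a type I receptor for activins, had 65.7, 64.5 and 51.7 TPM, which overlapped Bmpr1a. Acvr1, another type I BMP receptor, had 15.9, 17.8 and 15.9 TPM. Bmpr1a exceeded Acvr1 by 1.84 ± 0.14 on the log2(TPM + 1) scale (higher in 3 of 3 replicates, exact sign-flip p = 0.25). Bmpr1b, the third of the type I BMP receptors listed, had 1, 0 and 0 counts. A log2 difference from Bmpr1a is not given, since its size is set by the pseudocount.

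Among type II receptors Acvr2a (GRCm38 chromosome 2, 48814109 to 48903269, plus strand) had 37.2, 32.7 and 24.1 TPM, a mean of 31.3 ± 6.67 TPM. Bmpr2 (GRCm38 chromosome 1, 59763400 to 59879014, plus strand) had 16.5, 17.8 and 19.9 TPM, with its highest value in replicate 3. Acvr2b had 3.66, 3.03 and 2.33 TPM, below every library of both others. Bmpr2 minus Acvr2a was -1.13, -0.84 and -0.26 on the log2(TPM + 1) scale, and on CPM, counts not divided by length, the mean difference turned to 0.88 in favour of Bmpr2, whose deposited length of 17983 bases is the longest of the 42 genes. Acvr2a shares 446 exon bases with Orc4 on the opposite strand.

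Both TGF-beta receptor kinases were detected. Tgfbr2, which binds the ligand first, had 14.8, 23.1 and 20.7 TPM. Tgfbr1, its type I partner, had 17.6, 15.5 and 14.3 TPM. Tgfbr1 was above Tgfbr2 in replicate 1 and below it in replicates 2 and 3, a mean difference of -0.27 ± 0.44 on the log2(TPM + 1) scale (exact sign-flip p = 0.5), so their order was not resolved. Tgfbr3 (betaglycan), a coreceptor that presents TGF-beta2, had 7.23, 6.48 and 5.49 TPM. Tgfbr1 minus Acvr1b, which signals to the same Smads, was -1.87 ± 0.10 on that scale, lower in 3 of 3 replicates.

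All 6 signalling Smads were detected, from 13.3 to 50.7 TPM by mean. Smad4, the shared partner, had 48.04, 56.6 and 47.4 TPM. Smad5 (GRCm38 chromosome 13, 56703010 to 56742377, plus strand) had 50.3, 39.3 and 44.98 TPM and was the leading BMP Smad. Smad1 had 24.4, 18.2 and 14.6 TPM and Smad9 16.97, 19.2 and 12.3 TPM, which overlapped each other and lay below every library of Smad5. Smad1 minus Smad5 was -1.02, -1.07 and -1.56 on the log2(TPM + 1) scale.

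Of the TGF-beta Smads, Smad2 had 29.1, 29.5 and 23.1 TPM. Smad3 had 12.8, 14.7 and 12.4 TPM, and Smad2 exceeded it by 0.97 ± 0.14 on the log2(TPM + 1) scale in 3 of 3 replicates (0.37 on CPM). Summed TPM of Smad1, Smad5 and Smad9 was 2.18, 1.74 and 2.02 times that of Smad2 and Smad3. These are RNA levels, and the phosphorylated proteins were not measured here.

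The feedback inhibitors were also present. Smad7, which blocks both branches, had 30.6, 35.5 and 25.8 TPM. Smad6 (GRCm38 chromosome 9, 63953076 to 64022059, minus strand), which acts mainly on BMP signals, had 12.97, 29.96 and 15.4 TPM, and its SD of 0.61 on the log2(TPM + 1) scale was the widest of the detected genes. Replicate 2 was high for Smad6 and the others were close to each other. Bambi, a pseudoreceptor without a kinase domain, had 13.8, 10.4 and 9.65 TPM.

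All 4 Id genes were detected and 3 of them were at the top of the list. Id3 (GRCm38 chromosome 4, 136143497 to 136145755, plus strand) had 895, 637 and 568 TPM, a mean of 700.0 ± 172 TPM. Id1 (GRCm38 chromosome 2, 152736251 to 152737410, plus strand) had 651, 442 and 389 TPM, a mean of 494 ± 138 TPM. Id2 (GRCm38 chromosome 12, 25093799 to 25097140, minus strand) had 621, 415 and 412 TPM, a mean of 483 ± 119.9 TPM. Id3 was above Id1 and Id2 in every replicate, with differences of -0.51 ± 0.05 for Id1 minus Id3 and -0.53 ± 0.08 for Id2 minus Id3 on the log2(TPM + 1) scale, while Id1 and Id2 differed by 0.02 ± 0.09, within their spread. Id4 (GRCm38 chromosome 13, 48261228 to 48266026, plus strand), the least abundant, had 79.2, 68.8 and 59.9 TPM, and Id3 exceeded it by 3.30 ± 0.16 on that scale. Among detected entries the mean level of Id3 lay at percentile 98.7 and that of Id4 at 86.8.

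Id1, Id2 and Id3 were highest in replicate 1, also after TMM and upper quartile scaling of the libraries. The immediate early gene Fos, chosen after its values were seen, was highest there too, with 10120, 5406 and 4269 TPM in replicates 1, 2 and 3. Its part in the Id levels was not tested. Of the 34 detected pathway genes, 17 peaked in replicate 1, 15 in replicate 2 and 2 in the other, where 59.6%, 20.0% and 20.4% of all detected entries were. TMM scaling, which shifted replicates 1, 2 and 3 by -0.17, 0.07 and 0.09 on the log2 scale, turned the 3 numbers to 9, 20 and 5, and the shares of all detected entries to 43.3%, 26.9% and 29.8%.

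Secreted antagonists were abundant, with 4 of 5 detected. Fst (GRCm38 chromosome 13, 114452290 to 114458951, minus strand), encoding follistatin, which binds activins and some BMPs, had 483, 326 and 388 TPM, a mean of 399 ± 78.9 TPM. Grem1 (GRCm38 chromosome 2, 113746164 to 113758646, minus strand), a BMP antagonist also made by dermal fibroblasts, had 341, 427 and 376 TPM, a mean of 381 ± 43.05 TPM. Nog (GRCm38 chromosome 11, 89300638 to 89302332, minus strand), encoding noggin, had 73.3, 108 and 98.9 TPM. Grem1 and Nog were both lowest in replicate 1 and highest in replicate 2. So was the sum of the dermal papilla and fibroblast markers (25.1, 50.5 and 45.0 TPM), though Col1a1 was highest in replicate 3 and Hhip in replicate 1. The sums of hair follicle stem cell markers (21278, 27593 and 26106 TPM) and basal keratinocyte markers (19693, 28990 and 25677 TPM) had the same order. The part of dermal cells in the levels of Grem1 and Nog was not tested. Fstl1, a secreted follistatin-like glycoprotein, had 27.96, 32.5 and 43.1 TPM, and Chrd (chordin) had 34, 29 and 12 counts, or 0.540, 0.363 and 0.133 TPM. Per library, the summed TPM of Nog, Grem1 and Chrd was 4.73, 6.13 and 6.72 times that of the BMP ligand genes. Fst was 22.2, 11.7 and 21.1 times the summed TPM of Inhba and Inhbb.

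In all, 21 pairs of genes were compared within replicates, and 18 had the same sign in 3 of 3. The pairs were of like role, except for Fst and Inhba, an antagonist and a ligand subunit. For each of the 18 the two-sided exact sign-flip p was 0.25 and the Benjamini-Hochberg adjusted p 0.292. This sign-flip test cannot go lower with 3 replicates, so the differences are given with their spread. The SD of log2(TPM + 1) had a median of 0.22 over the 27 pathway genes between 10 and 100 TPM, beside 0.23 over all 6940 entries of that range. Over the 5 genes above 100 TPM it was 0.34, beside 0.17 over the 1085 entries of the same band of levels. Those 5 are Id1, Id2, Id3, Fst and Grem1, and Grem1 alone was below 0.17, at 0.16.

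H3K27me3 values above 0 were held by 6 of the 42 genes (14.3%), against 8.06% of all entries and 11.2% of protein-coding genes. All 6 were BMP ligands or a BMP receptor, and no TGF-beta ligand, Smad, Id gene or antagonist of the list had one. In the authors' deposited table they were 15549 for Bmp4, 9663 for Bmp8b, 8571 for Bmp3, 7941 for Bmpr1b, 4184 for Bmp8a and 2197 for Bmp6. Their unit, the cells assayed and the peak calling are not given in the sources used here. The median of the 3597 values above 0 was 7593, and Bmp4 lay at percentile 73.9 of them and Bmp6 at 8.98. The value of Bmp4 was shared with its neighbouring entries Gm15217 and Gm15222, and those of the other 5 genes with no entry of the same chromosome.

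Most genes with a value were near silent. Of the 6 genes with a value, 1 was detected, and among all protein-coding genes with a value 17.3% were. Of the 36 genes with a value of 0, 33 were detected, against 59.6% of such protein-coding genes. The exception was Bmp6, with the smallest value of the 6 and a mean of 16.9 ± 2.21 TPM, where 5.25% of protein-coding genes with a value reached 10 TPM. The 3 genes that had a value of 0 and were under 1 TPM were Bmp5, Inhba and Chrd.

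**Figure D2:**
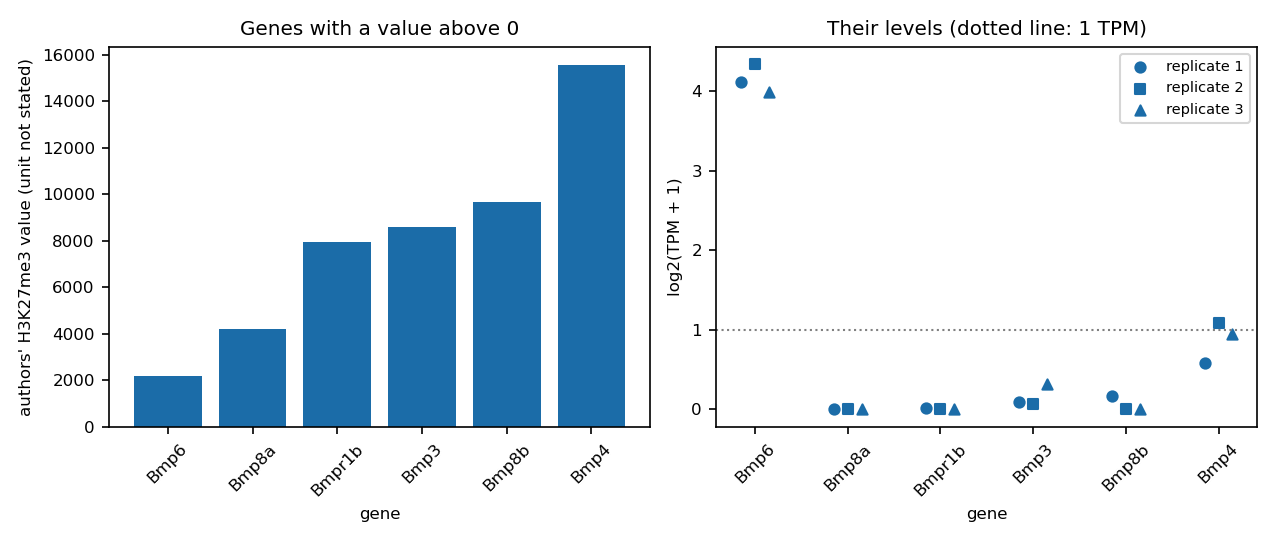
Left, the authors' H3K27me3 value (unit not stated) of the 6 pathway genes with a value above 0. Right, the level of the same genes on the log2(TPM + 1) scale, 1 point per library. Bmp6, with the smallest value (2197), is the only one whose libraries all lie well above the dotted line at 1 TPM.

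RefSeq start site windows (GRCm38.p6) were found for 29 of the 42 genes, and Id1, Nog and Fst were among those without one. Taking 1 window per gene, the ratio of observed to expected CG dinucleotides in the 250 upstream bases had a median of 0.503 in the 5 genes with an H3K27me3 value, Bmp4, Bmp6, Bmp8a, Bmp8b and Bmpr1b. It had a median of 0.792 in the 24 genes without one. Over all protein-coding genes with a window the medians were 0.583 for 1746 genes with a value and 0.560 for 14102 without, so the direction seen in the pathway genes was not that of the whole table. Of the 6-letter motif GGCGCC, described in BMP-responsive elements and equal to its own reverse complement, a match was found in 9 of 34 windows of the pathway genes and in 9.59% of all 32851 windows. This motif holds only G and C, and the windows of the pathway genes had from 42.8% to 85.6% of these bases. The 2 sets of windows were not matched for base composition, so the shares cannot be read as an excess of the motif. Id2, Id4, Grem1, Smad9, Bmpr1a and Bmpr2 were among the genes with a match, and Id3 and Smad6 had none. The motif CAGAC, a Smad-binding element that shares no whole match with the other motif, was found on either strand in 14 of 34 windows and in 42.2% of all windows. Id3 and Tgfb2 each held it at 2 places. Not every window lies outside exons: all 250 bases of those of Id3, Bmp6, Bmpr2 and Acvr1 fall in exons of GENCODE M21, and others do in part. The windows of Bmpr1b lie inside the gene. A match is a description of these letters, not of binding.

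The authors' deposited table also holds a log2 fold change with an adjusted p-value. From column names it was taken to compare these libraries with libraries named Bulge, which were not analysed here. Its direction was read from 2555 entries that had 0 counts in the 3 libraries and a fold change, of which 2555 were negative, and positive values are read here as higher in the sorted cells. Of the 41 pathway genes with an adjusted p in the authors' deposited table, 12 were higher and 19 lower at an adjusted p under 0.05, or 29.3% and 46.3%. Over all 20274 entries with an adjusted p the shares were 23.6% and 32.0%. Among entries of at least 1 TPM they were 35.1% and 25.6%, and of the 34 pathway genes at that level 12 were higher and 13 lower. By role, the higher and lower calls numbered 3 and 1 of 4 Id genes, 2 and 0 of 3 feedback inhibitors and 3 and 1 of 5 TGF-beta and activin ligands. They were 0 and 8 of 10 receptors and 0 and 4 of 6 signalling Smads. Calls were mixed for BMP ligands, 2 and 4 of 7 with an adjusted p, and for secreted antagonists, 1 and 1 of 5. These roles differ in gene length, which also moved with the calls, and no test of role was made.

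In the authors' deposited table the largest positive fold change was that of Id1, with a log2 value of 3.33 (adjusted p = 1.82e-54), followed by Id3 with 2.84 (adjusted p = 2.35e-45). Id2 had 0.803 (adjusted p = 0.000333), and Id4 went the other way with -0.65 (adjusted p = 0.0156). Nog had 2.41 and Bmp1 2.13 on the same log2 scale of the authors' deposited table. Smad6 had 1.803 and Smad7 1.35, and Bambi, with 0.57, did not pass (adjusted p = 0.0592). Tgfb1, Inhbb and Tgfb3 were higher, with 1.302, 0.95 and 0.83 in the authors' deposited table, as were Bmp6 with 1.104 (adjusted p = 0.0233) and Bmp7 with 0.95. Bmp2, Tgfb2, Fst and Fstl1 had values between 0.23 and 0.36 and did not pass, and Chrd, with 2.02 on 12 to 34 counts a library, did not pass either (adjusted p = 0.143).

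Among receptors, 8 of 10 were lower in the authors' deposited table. Bmpr2 had the largest of these fold changes among the detected ones, -3.01 (adjusted p = 6.8e-42), then Acvr2a with -2.04 (adjusted p = 1.66e-24), Acvr2b with -1.46, Bmpr1a with -1.43 and Tgfbr1 with -1.38. Tgfbr3 had -0.88 and Acvr1 -0.64. Acvr1b (0.16) and Tgfbr2 (0.19) did not pass. Of the signalling Smads, 4 of 6 were lower in the authors' deposited table, from -1.06 for Smad1 to -0.698 for Smad5, and Smad3 and Smad4 did not pass. Grem1 was the 1 antagonist that was lower, with -0.79 (adjusted p = 0.00106).

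The other lower calls in the authors' deposited table were on genes with almost no counts in these libraries: Bmp3, Bmp4, Bmp8a, Bmp8b, Bmpr1b and Inhba, with log2 values from -4.17 to -2.36. A fitted fold change on so few counts is no bound on the difference. The score of the authors' deposited table follows from its other columns. It matches the fold change multiplied by minus the decimal logarithm of the adjusted p, and by the H3K27me3 entry raised by 1. Among the pathway genes it was highest for Bmp6 (3961.53, rank 284 of 20274), and Id1, with an H3K27me3 entry of 0, had 179.173. Bmp6 was the 1 gene of the list that had both an H3K27me3 value and a positive fold change. Its rank therefore restates those columns and is no separate result.

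**Figure D3:**
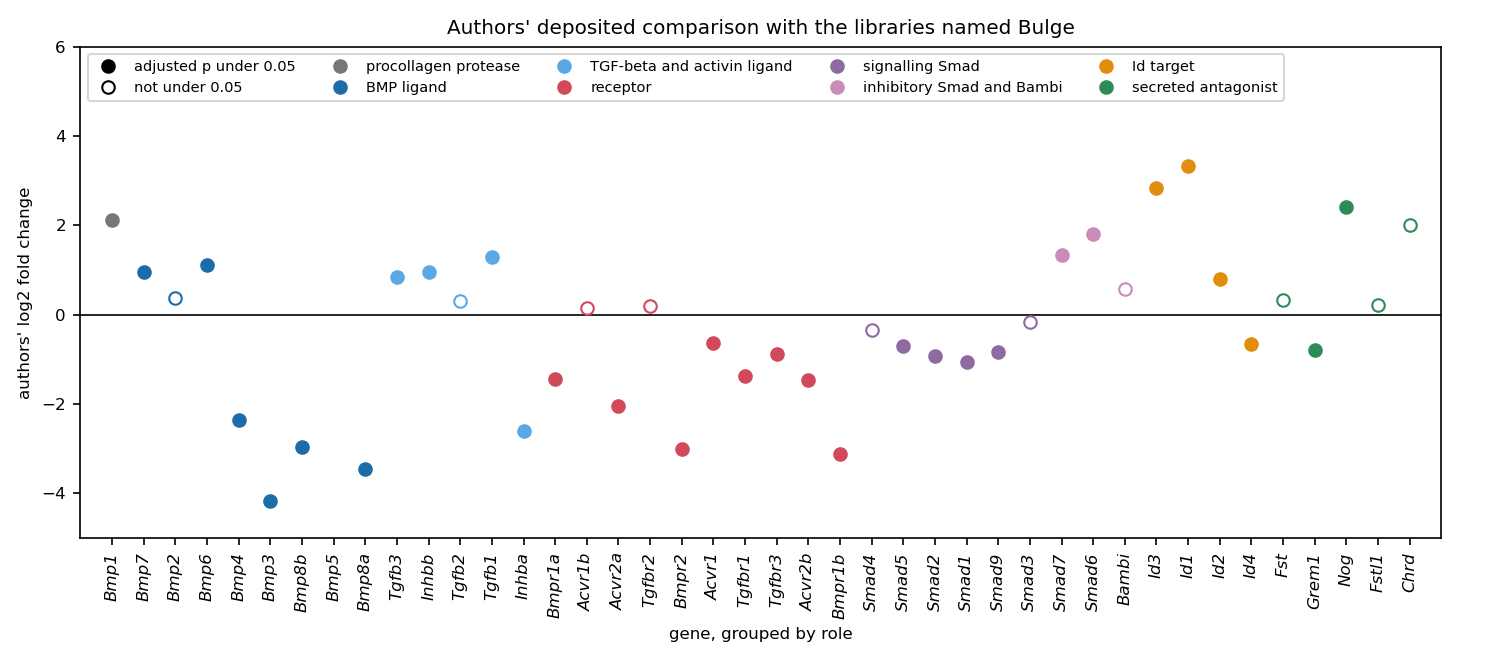
The log2 fold change per gene from the authors' deposited table, taken as these cells against libraries named Bulge, grouped by role in the order of the plot of levels. Filled points have an adjusted p under 0.05 and open points do not; Bmp5 has no value. All points of the receptors that pass lie below 0 (8 of 10), and Id1 (3.33) and Id3 (2.84) lie highest.

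These calls moved with gene length, a comparison added after the values were seen. Among 13506 detected entries with an adjusted p, the median log2 fold change in the authors' deposited table was 1.09 for genes under 2000 bases, 0.70 from 2000 to 4000, 0.11 from 4000 to 6000 and -0.72 from 6000 bases. Lower calls took 12.4%, 13.0%, 26.0% and 54.7% of the 4 classes, and higher calls 44.3%, 47.5%, 31.7% and 13.1%. Of the 7 detected pathway genes of 6000 bases or more, 6 were lower and 0 higher, namely Bmpr1a, Bmpr2, Tgfbr1, Tgfbr3, Smad1 and Smad5, and Tgfbr2 did not pass. Of the 5 under 2000 bases, 4 were higher, namely Id1, Id2, Id3 and Nog, and Id4 was lower. The part of gene length in the calls was not tested.

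Of the 9 detected pathway genes from 2000 to 4000 bases, 4 were higher in the authors' deposited table (Bmp1, Bmp6, Tgfb3 and Smad6) and 2 lower (Acvr2b and Smad2), where 47.5% and 13.0% of entries were. In the class from 4000 to 6000 bases 4 of 13 were higher (Bmp7, Tgfb1, Inhbb and Smad7) and 4 lower (Acvr1, Acvr2a, Smad9 and Grem1), near the shares of all entries. Id1 and Id3 lay above the median of their class (1.09), whereas Id2, with 0.803 in the authors' deposited table, lay below it. Across genes, Spearman's rho of length and fold change was -0.60 over the 34 detected pathway genes and -0.38 over 13506 entries, a description without a test, since these genes share their libraries.

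**Figure D4:**
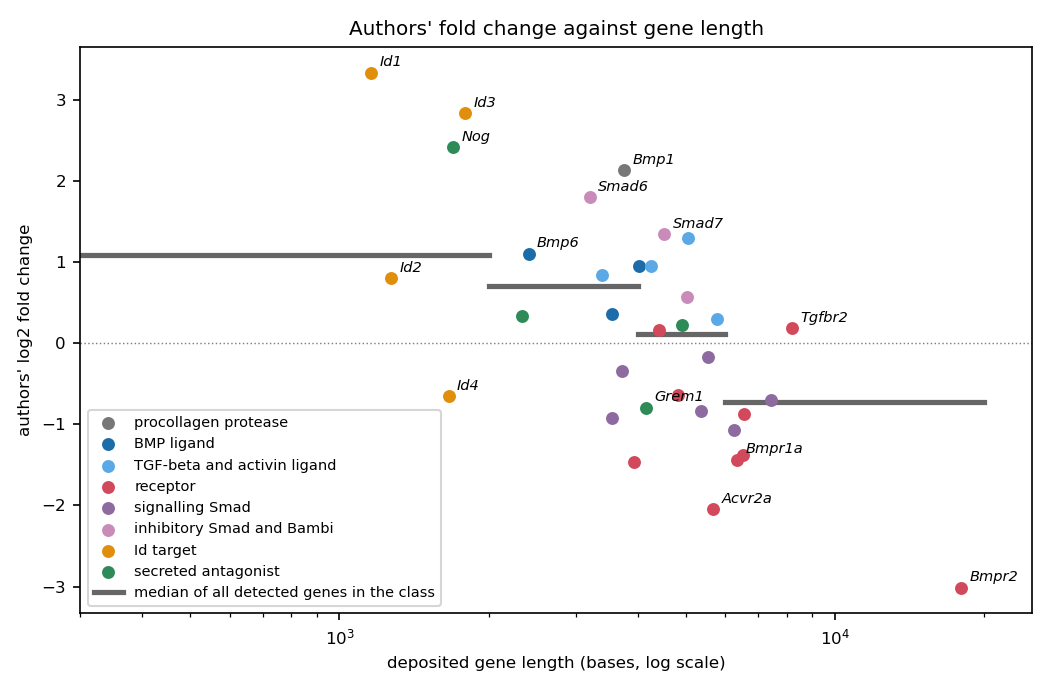
The authors' deposited log2 fold change against the deposited gene length in bases (log axis) for the 34 pathway genes with a mean of at least 1 TPM, coloured by role. Grey bars are medians of all detected entries in 4 length classes, falling from 1.09 under 2000 bases to -0.72 from 6000 bases; Id1, Id3 and Nog lie above the first bar, and 7 of 9 receptors lie below the bar of their class.

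Other genes of the pathway were read from a wider list of 92 genes in the table, of which 60 were detected. Among 19 further ligands 3 were, Gdf10 with 50.96 ± 17.8 TPM, Lefty1 with 29.96 ± 4.86 TPM and Inha with 7.42 ± 7.16 TPM. Inha, the inhibin alpha subunit, had 15.7, 2.77 and 3.82 TPM and was highest in replicate 1. Secreted antagonists were detected in 6 of 13 cases, led by Nbl1 with 653 ± 124 TPM, Sostdc1 with 511 ± 56.5 TPM and Twsg1 with 90.4 ± 8.83 TPM. Nbl1 and Sostdc1, both of which bind BMPs, were thus above Grem1 in mean TPM. Of 15 genes of the latent TGF-beta complex and its activation, 11 were detected, with Ltbp4 at 313 ± 111 TPM, Thbs1 at 299 ± 83.1 TPM and Ltbp3 at 258 ± 31.1 TPM. The proteins of Ltbp3 and Ltbp4 bind latent TGF-beta in the matrix.

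Of 8 further receptors and coreceptors 5 were detected, Neo1 with 57.5 ± 3.94 TPM, Rgma with 41.7 ± 11.04 TPM and Rgmb with 37.3 ± 2.43 TPM being the highest. Intracellular regulators were detected in 19 of 20 cases, led by Tob1 with 238 ± 73.8 TPM, Ski with 106 ± 21.96 TPM and Fkbp1a with 87.3 ± 9.61 TPM. Of 17 reported targets 16 were detected, led by Tgfbi with 1820 ± 242 TPM, Junb with 1178 ± 338 TPM and Ctgf with 1085 ± 615 TPM. Ctgf was highest in replicate 1, with 1793, 686 and 776 TPM. Junb had 1528, 1152 and 853 TPM, in the replicate order of Fos (10120, 5406 and 4269 TPM), and what sets the level of Junb was not tested.

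In the authors' deposited table, 25 of 73 genes of the wider list with an adjusted p were higher and 21 lower, or 34.2% and 28.8%. Over all entries with an adjusted p, the like set, the shares were 23.6% and 32.0%. Over those of at least 1 TPM they were 35.1% and 25.6%, but the 73 genes include some under 1 TPM, such as Gdf11 and Nodal. The reported targets gave 10 higher and 1 lower of 16, and the intracellular regulators 2 higher and 11 lower of 20. Of those 11, Tab2, Sptbn1, Zfyve9, Smurf2, Xiap, Nedd4l, Skil, Zfyve16 and Trim33 have 6000 bases or more, and Tob1 and Usp15 are shorter. Runx1, the 1 lower target, has 11827 bases. In that class of length 54.7% of all detected entries were lower, and the part of length in these calls was not tested. The further receptors gave 4 higher and 1 lower of 6. The largest positive log2 values in the authors' deposited table were those of Junb (4.79), Cdkn2b (2.66), Nbl1 (2.41) and Tab1 (2.14). The largest negative ones were those of Gdf11 (-4.74), Nodal (-4.28), Trim33 (-2.56) and Runx1 (-2.105). Cdkn2b, a cell cycle inhibitor induced by TGF-beta, had 49489 as its H3K27me3 entry of the authors' deposited table and 4.00, 7.50 and 6.00 TPM in replicates 1, 2 and 3. H3K27me3 values above 0 were held by 19 of the 92 genes of the wider list, where 8.06% of all entries and 11.2% of protein-coding genes had one. Of the 19 genes, 14 were under 1 TPM, and 17.3% of all protein-coding genes with a value were detected.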

How the data were processed

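Polyadenylated RNA of 3 libraries in 1 group was read from 1 table of 44625 entries. Whole-number read counts per gene and TPM were deposited by the authors, per the file headers. Dividing counts by the gene lengths of the table returned its TPM to within 4.72e-06. Per the submitters' processing notes, TopHat2, SAMtools, FastQC, DESeq2 and DESeq were used and the builds mm10 and GRCm38 are named, with no roles. The counting tool and strand setting are not given in the sources used here. The log2 fold change, the adjusted p-value, the score and the H3K27me3 value are the authors' deposited columns. Another 6 columns of per-sample values match no sample and were not used in any step.

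Positions and gene types come from GENCODE M21 (GRCm38), which held 44392 of the identifiers. Detection meant a mean of at least 1 TPM over replicates. Pairs of genes were compared within replicates on log2(TPM + 1), with a pseudocount of 1, by a two-sided exact sign-flip permutation test and Benjamini-Hochberg adjustment. TMM factors came from edgeR 4.0.16 in R 4.3.3 on length-scaled counts and were tested on simulated data, and the rest was computed in Python 3.11.15. No differential expression test was run, since there is 1 group. A count of 3, the limit that 0 counts allow, was converted to TPM for each library. Every replicate value is given for genes of at least 10 TPM and for detected genes called in the authors' table. In the wider list the 3 highest genes of each class and the 4 largest fold changes in each direction are named. The members and lists were chosen with earlier results of these data known. Alternatives covered limits, scaling, pseudocount, length division, call rules and leaving out each replicate. Gdf1 was not matched.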

Additional observations from a re-analysis of the deposited data

How the results depend on the processing

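The numbers of detected pathway genes (34), of H3K27me3 values and of higher calls stayed within 1.5 times under each alternative that was run. With a limit of 50 TPM in place of 10, 10 genes remained past it. The number highest in replicate 1 was 7 after upper quartile scaling and 9 after TMM scaling, in place of 17, by construction of the shifts. Lower calls in the authors' table with a log2 fold change of at least 1 numbered 12 in place of 19, and with an adjusted p under 0.01 they numbered 13. Without each replicate in turn the median level ranged from 19.1 to 22.3 TPM, the highest without replicate 1. On CPM, not divided by length, Bmpr2 minus Acvr2a turned to 0.88 and Id1 minus Id2 to -0.11, while the other 19 differences kept their sign. Of these, Tgfb2 minus Tgfb3 went from -0.99 to -0.25 and Smad2 minus Smad3 from 0.97 to 0.37, and Id1 minus Id3 grew from -0.51 to -1.13. A pseudocount of 0.1 or 5 moved the differences that involve Bmpr1b, Bmp4 or Inhba by the most. Leaving out each replicate moved Id1 minus Id2 from -0.0088 (without replicate 2) to 0.079. No paired analysis was possible because there is 1 group of samples. The sign-flip test used here cannot reach 0.05 with 3 libraries, and levels under 1 TPM rest, among the pathway genes, on at most 34 counts a library.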
